A study of Mus musculus with 18 samples.

Results

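The Myc, Max and Mxd network was followed through 10 mouse genes, Myc, Mycn, Mycl, Max, Mxd1, Mxi1, Mxd3, Mxd4, Mnt and Mga, which were taken by gene name from the 55469 genes with values in all 18 RNA-Seq libraries. All 10 were found. The study asked whether a set of forced factors (OSKM, which stands for Oct4, Sox2, Klf4 and Myc) can keep mouse pluripotent cells without the usual inhibitors and cytokine. All ESCs came from 1 Tet-On-OSKM/Oct4-GFP line, of strain background (C57BL/6 x 129S4/SvJae)F1 crossed with (CBA/CaJ X C57BL/6J)F2, grown on mitomycin-c treated MEF feeders. Every cell of this line, those of the 2iL group included, carried M2rtTA at Rosa26, the OSKM cassette at Col1a1 and the GFP reporter of the Oct4 distal promoter. OSKM-ESCs were moved from 2iL to N2B27 with doxycycline (DOX), which switches the cassette on, and were collected at days 18, 25 and 38. 2iL-ESCs stayed in N2B27 with PD0325901 (an inhibitor of MEK), CHIR99021 (an inhibitor of GSK3) and LIF for the same days. Each day and medium had 2 libraries. The iPSCs were single clones from Tet-On-OSKM MEF cells of strain (C57BL/6 x 129S4/SvJae)F1, which were also placed on feeder cells for induction. OSKM-iPSC clones 1 and 3 (passages 7 and 6) were induced and kept in N2B27 with DOX. 2iL-iPSC clones 3 and 6 (passages 2 and 3) were induced in 2iL with DOX. Their sample labels name N2B27 with DOX for later culture, whereas the study's methods withdraw DOX, so this point is uncertain, and passage cannot be told apart from medium in the iPSCs. The remaining 2 libraries were MEF cells of passage 4 in DMEM with FBS. Outside the iPSC clones, nothing states that the 2 libraries of a group came from separate derivations. The p-values measure the spread between these libraries, which may be technical in ESCs and MEF cells. In each iPSC group it is the spread between 2 clones.

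Expression is given as FPKM, fragments scaled to transcript length and library size. Levels of different genes are compared on this scale and may differ by coverage, as given below for Myc, Mycn, Max and Mxi1. Depth is unknown because no counts of reads were analysed here. A proxy that grows with it, the ratio of coverage to FPKM, had library medians of 2.99 to 3.62. The 9 pluripotency markers examined were above 1 FPKM in all ESC and iPSC libraries, and 7 of 9 were at 0 in both MEF libraries. Their summed FPKM was 775.8 to 1315 in OSKM-ESCs and 2185 to 2708 in 2iL-ESCs. Over all days, 7 of 9 were called lower and 2 higher in OSKM-ESCs, beside 24.4% and 29.5% of all genes tested. Their median log2 fold change was -1.59, beside 0.03 over all genes. The summed FPKM of 10 fibroblast markers was 16.2 to 27.9 in OSKM-ESCs, 3.23 to 5.48 in 2iL-ESCs and 1035 to 1181 in MEF cells. OSKM-iPSC clone 1 stood apart with a sum of 72.9, against 4.32 in clone 3 and 1.83 and 3.30 in the 2iL-iPSC clones. Results of network genes in OSKM-iPSCs are therefore also given without clone 1, and for other genes called in iPSCs the FPKM of clone 3 is given by itself.

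The proteins of this network share a basic helix-loop-helix zipper and act as pairs. Myc, N-Myc and L-Myc bind DNA only as dimers with Max and activate genes of growth and metabolism. Mxd1, Mxi1, Mxd3, Mxd4 and Mnt compete for Max and recruit Sin3 and histone deacetylases, and Mga joins Max to the variant Polycomb complex PRC1.6, which keeps germline genes silent. In mouse ESCs, Myc and N-Myc are known for their part in proliferation and self-renewal, and Max and Mga for holding back germ cell genes.

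All of these dimers recognise the E-box CACGTG, so the promoters of the network genes and of genes they are known to control were searched for it. The letters CACGTG read the same on both strands and were sought in RefSeq windows of 300 bases, from 250 before to 50 after each start (GRCm38.p6). Of all 32851 windows, 7.15% held the motif. The network had 11 windows from 9 of its genes, the exception being Myc, and 3 windows held it, those of Max, Mnt and Mxd4. A list of 28 genes known to be activated by Myc had 29 windows, of which 9 held it. A list of 6 genes known to be repressed by Myc had 8 windows, and 0 held it. A list of 15 germline genes known as PRC1.6 targets had 18 windows from 14 genes, of which 12, from 9 genes, held it. The stretches of 30 bases that follow, 1 per gene, on the strand of the gene and with the E-box in capitals, show the shared letters in 3 network genes and in 7 of the 9 germline genes, those whose RNA values are given further on. They lie at chr12:76962234-76962263 (Max), chr11:74830789-74830818 (Mnt), chr5:34187912-34187941 (Mxd4), chr3:95559645-95559674 (Hormad1), chr6:49395472-49395501 (Stk31), chr3:102936177-102936206 (Sycp1), chr10:88459511-88459540 (Sycp3), chr13:112652322-112652351 (Ddx4), chr1:166238950-166238979 (Mael) and chr19:56826186-56826215 (Tdrd1). Max, Mxd4, Sycp1, Ddx4 and Mael are read from the minus strand and the others from the plus strand.
Max: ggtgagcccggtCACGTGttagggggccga
Mnt: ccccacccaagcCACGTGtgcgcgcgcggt
Mxd4: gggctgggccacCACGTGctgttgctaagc
Hormad1: atgcgcactgcgCACGTGctgaccggagcg
Stk31: aggccggccaccCACGTGaccagggctgcg
Sycp1: tagagaacccggCACGTGggaagggaaatc
Sycp3: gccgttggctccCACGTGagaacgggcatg
Ddx4: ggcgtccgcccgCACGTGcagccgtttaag
Mael: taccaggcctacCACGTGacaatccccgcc
Tdrd1: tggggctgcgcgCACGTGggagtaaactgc
A match of these letters is a description of the sequence and not of binding.

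Over all days, OSKM-ESCs had higher FPKM of Myc, Mycn and Mxd4 and lower FPKM of Mxi1 and Mga than 2iL-ESCs. Of the 10 genes, 9 passed the filter of an FPKM over 1 in at least 1 library and were tested, and these 5 were called at an adjusted p under 0.05 (limma on log2(FPKM + 1), Benjamini-Hochberg over all genes). The comparison called 53.8% of all genes tested, 29.5% upwards and 24.4% downwards, so 3 genes up and 2 down of 9 is close to the background. In whole cultures, fewer cells of a type and less RNA per cell cannot be told apart.

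**Figure D1:**
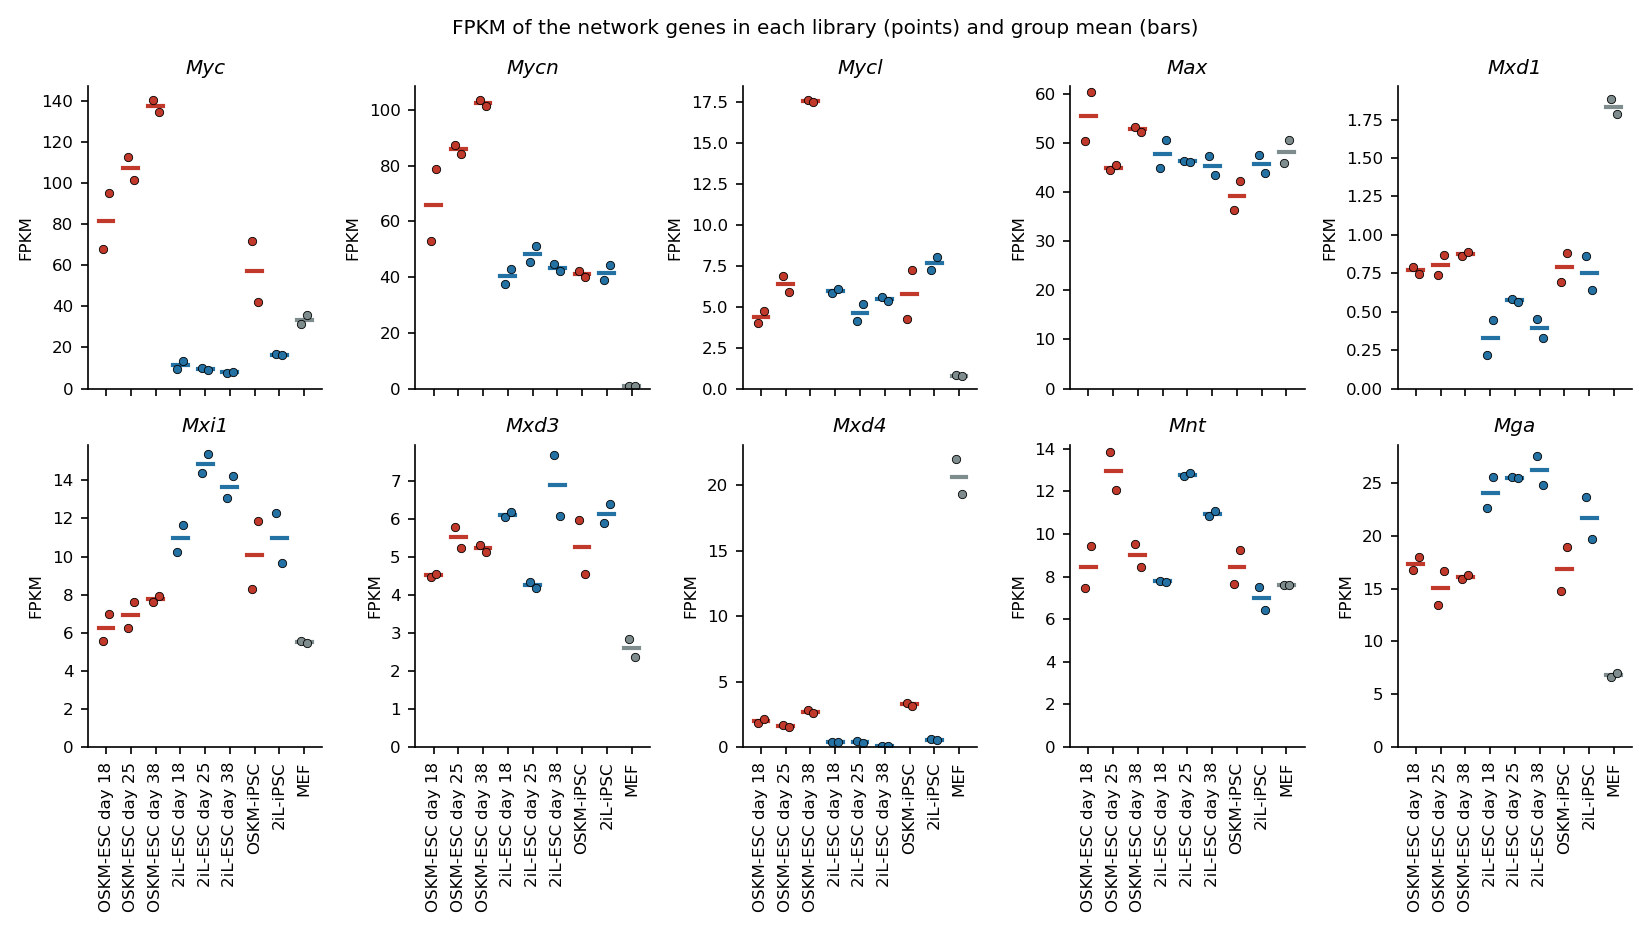
FPKM of the 10 network genes (y axes, linear from 0) in the 18 libraries by group; each point is a library and each bar the mean of 2. Myc spans 67.9 to 141 FPKM in OSKM-ESCs and 7.57 to 13.6 in 2iL-ESCs, whereas Max stays between 36.3 and 60.5 in all 18 libraries.

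Myc (chr15:61985391-61990374, plus strand) showed the widest gap. Its reads cannot be split between the endogenous gene and the Myc of the OSKM cassette. Its FPKM was 67.9 and 95.4 at day 18, 113 and 102 at day 25, and 141 and 135 at day 38 in OSKM-ESCs. In 2iL-ESCs it was 9.44 and 13.6, 9.96 and 9.04, and 7.57 and 8.09 on the same days. No OSKM-ESC library overlapped a 2iL-ESC library. The means were 109 ± 26.9 and 9.62 ± 2.15 FPKM (SD, n = 6), an 11.3-fold difference (log2 fold change 3.35 ± 0.18 SE, limma adjusted p = 3.3e-08), and the exact 2-sided permutation test of the means gave p = 0.0022, the smallest that 6 against 6 allows. The fold was 7.07 at day 18, 11.3 at day 25 and 17.6 at day 38, and the limma test of medium by day was passed (F = 12.6, adjusted p = 0.010).

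None of the 3 other factors of the cassette was called higher in OSKM-ESCs, over all days or on a single day. Mean FPKM in OSKM-ESCs minus that in 2iL-ESCs was 99.3 for Myc, -3.36 for Pou5f1 (encoding Oct4), -19.3 for Klf4 and -55.3 for Sox2, each again with reads of the cassette and the endogenous gene pooled. Over all days, Sox2 fell by 0.57 on the log2 scale (limma adjusted p = 0.0089), whereas Pou5f1 (adjusted p = 0.94) and Klf4 (adjusted p = 0.12) missed the threshold. Single days varied. Of the 4 cassette genes, 2 were called lower at day 25 (25.3% of all genes), 2 at day 38 (25.2%) and none at day 18 (17.7%). The limma test of medium by day called 3 of the 4, against 37.9% of all genes. Klf4 at day 25 was 37.3 and 29.4 FPKM in OSKM-ESCs against 90.3 and 96.8 in 2iL-ESCs. Pou5f1 at day 38 was 586.2 and 587.1 FPKM against 693.6 and 692.3. At day 25, Pou5f1 was 762.4 and 671.6 FPKM in OSKM-ESCs and 607.7 and 595.9 in 2iL-ESCs, without overlap (log2 fold change 0.25, limma adjusted p = 0.073), and Klf4 at day 18 was 23.8 and 42.9 FPKM against 28.7 and 32.0 (0.08, limma adjusted p = 0.83). Pvt1 (chr15:62037986-62378096), the noncoding neighbour of Myc outside the cassette, had an FPKM of 2.68 to 6.62 in OSKM-ESCs and 4.01 to 5.96 in 2iL-ESCs. The Pvt1 ranges overlapped, and the log2 fold change of Pvt1 was -0.18 ± 0.14 over all days (limma adjusted p = 0.30). At days 18, 25 and 38 it was 0.31, -0.34 and -0.51. Day 38 alone was called, at 2.78 and 2.68 FPKM in OSKM-ESCs against 4.01 and 4.62 in 2iL-ESCs. Pvt1 was also called in the limma tests of medium by day and of days within OSKM-ESCs.

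Mycn (chr12:12936093-12941914, minus strand), which encodes N-Myc and is not in the cassette, was the leading Myc gene of 2iL-ESCs. Its FPKM in OSKM-ESCs was 52.9 and 78.9 at day 18, 87.4 and 84.3 at day 25, and 103 and 101 at day 38. In 2iL-ESCs it was 37.7 and 42.7, 45.5 and 51.1, and 44.6 and 42.2. The lowest OSKM-ESC library, at 52.9, lay just above the highest 2iL-ESC library, at 51.1. Mycn was 1.93-fold higher in OSKM-ESCs (log2 fold change 0.90 ± 0.11 SE, limma adjusted p = 2.5e-05, and exact permutation p = 0.0022). The test of medium by day was not passed (limma adjusted p = 0.15), so a change of this gap between days was not shown. At day 18 the call of Mycn (0.67, limma adjusted p = 0.031) was lost without OSKM-ESC replicate 2 or either 2iL-ESC library.

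Mycl (chr4:122995652-123002485, plus strand), which encodes L-Myc, moved late. In OSKM-ESCs its FPKM was 4.02 and 4.76 at day 18, 6.89 and 5.89 at day 25, and 17.6 and 17.5 at day 38. The 2iL-ESCs stayed between 4.11 and 6.08 FPKM on all days. Of the single days, day 38 alone passed the test, with a 3.23-fold higher mean (log2 fold change 1.53 ± 0.07 SE, limma adjusted p = 5.0e-05). The log2 fold changes of day 18 (-0.37, limma adjusted p = 0.061) and day 25 (0.39, adjusted p = 0.075) missed the threshold, and over all days the adjusted p was 0.089. The limma test of medium by day was passed (F = 67.6, adjusted p = 0.00011). The value over all days did pass without OSKM-ESC day 18 replicate 1 (0.65, limma adjusted p = 0.039), without 2iL-ESC day 18 replicate 2 (0.63, limma adjusted p = 0.049) and in 1 fit of all 9 conditions (0.52, limma adjusted p = 0.00070).

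**Figure D2:**
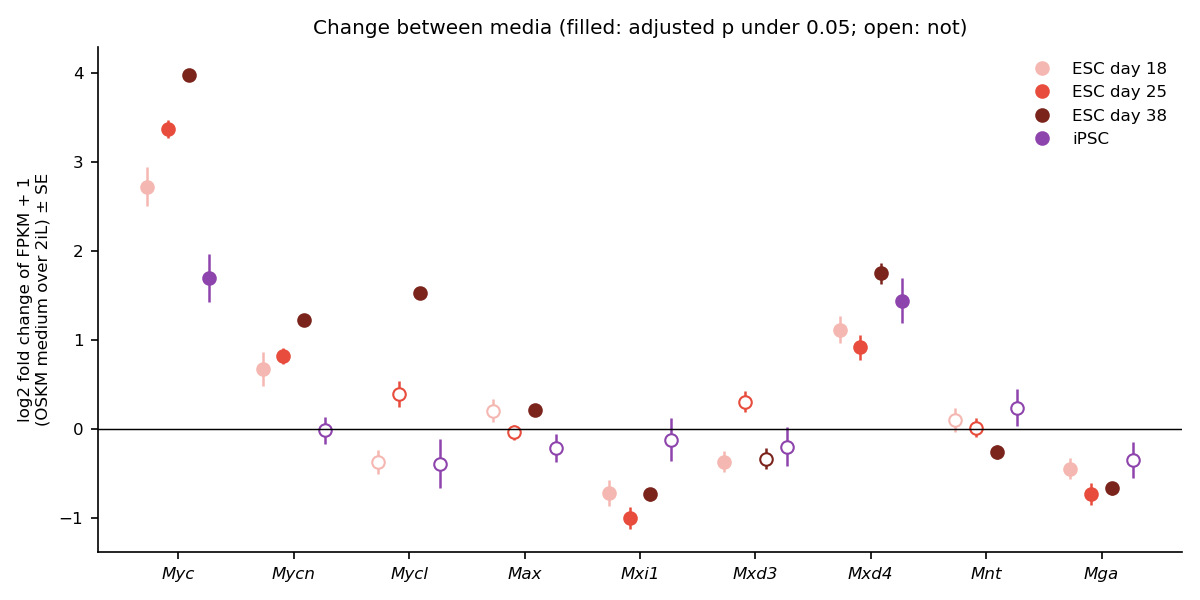
Log2 fold changes of FPKM + 1 (y axis, OSKM medium over 2iL, ± SE from limma) for 9 network genes in ESCs of days 18, 25 and 38 and in iPSCs; filled points have an adjusted p under 0.05. Myc is above 0 in all 4 comparisons (2.72, 3.37, 3.97 and 1.69), and Mycl reaches 1.53 only at day 38.

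Max (chr12:76937269-76962201, minus strand), the partner shared by all the others, overlapped between the media. It ranged from 44.5 to 60.5 FPKM in OSKM-ESCs (median 51.4) and from 43.5 to 50.8 in 2iL-ESCs (median 46.3). The log2 fold change over all days was 0.13 ± 0.07 (limma adjusted p = 0.13, exact permutation p = 0.11). A call at day 38 (0.21, limma adjusted p = 0.023) was lost without either OSKM-ESC library of that day and without 2iL-ESC replicate 2.

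Summed over Myc, Mycn and Mycl, OSKM-ESCs held 125 to 262 FPKM (median 199) and 2iL-ESCs 52.9 to 65.3 (median 58.6). Relative to Max, that was 2.47 to 4.90 FPKM of Myc genes per FPKM of Max in OSKM-ESCs and 1.18 to 1.41 in 2iL-ESCs, with no overlap. The mix also differed. Myc made up 53.0% to 54.5% of the sum in the 6 OSKM-ESC libraries and 13.1% to 21.8% in the 2iL-ESCs, where Mycn made up 68.4% to 78.3%. In OSKM-ESCs the Myc share was thus nearly fixed while its FPKM spanned 67.9 to 141. These sums count RNA and not protein. The ratio of coverage to FPKM, relative to its library median, had a median over the libraries of 0.82 for Myc, 1.26 for Mycn and 0.82 for Max. The shares, the ratio to Max and the order of Myc and Mycn are therefore by FPKM and may differ by coverage.

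**Figure D3:**
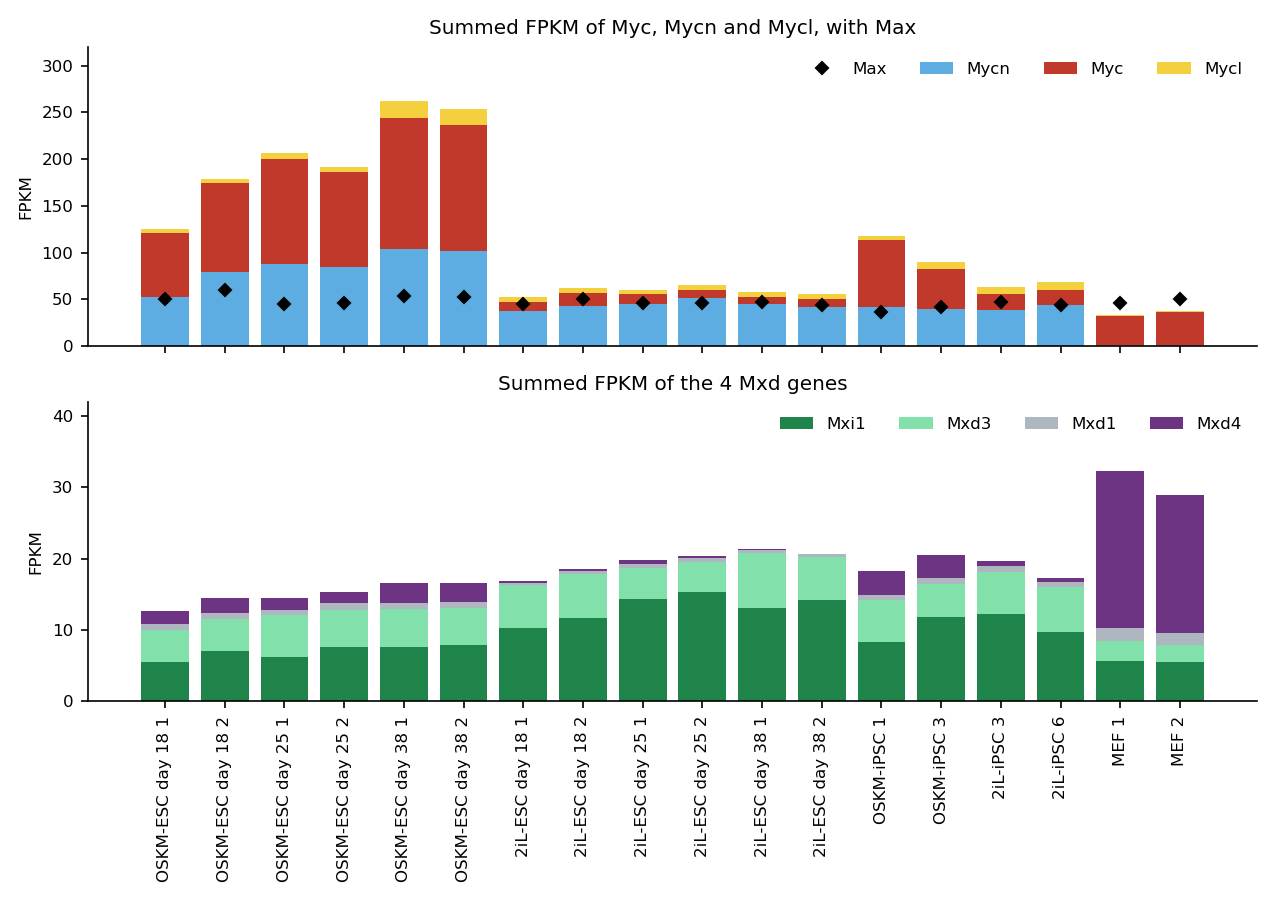
Stacked FPKM (y axes, from 0) of Myc, Mycn and Mycl with Max as diamonds (upper panel) and of Mxi1, Mxd3, Mxd1 and Mxd4 (lower panel) in each of the 18 libraries. The Myc sum exceeds Max in every ESC and iPSC library and lies below it in both MEF libraries (33.0 and 37.4 FPKM, against 45.9 and 50.6 of Max), and Mxd4 fills most of the lower bars only in MEF cells.

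The antagonists did not move as a block. Mxi1 (chr19:53310518-53375810, plus strand), by FPKM the most abundant Mxd gene of the pluripotent cells, was lower in OSKM-ESCs, at 5.55 to 7.93 FPKM (median 7.30) against 10.3 to 15.4 (median 13.6) in 2iL-ESCs. The groups did not overlap, the mean was 1.88-fold higher in 2iL-ESCs, and the log2 fold change was -0.82 ± 0.09 (limma adjusted p = 8.1e-06, exact permutation p = 0.0022). It was called on each day, from -0.72 at day 18 to -1.01 at day 25, the call of day 18 being lost without OSKM-ESC replicate 1 or either 2iL-ESC library. The ratio of coverage to FPKM was 0.16 to 0.18 times the library median for Mxi1 in all 18 libraries. For Mxd3 this ratio was 0.95 to 1.03. The rank of Mxi1 and the summed Mxd values are therefore by FPKM and may differ by coverage.

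Mxd4 (chr5:34173883-34187720, minus strand) went the other way. Its FPKM was 1.57 to 2.80 in OSKM-ESCs (median 1.98) and 0.084 to 0.46 in 2iL-ESCs (median 0.33), with no overlap. The mean was 7.31-fold higher (log2 fold change of FPKM + 1 of 1.26 ± 0.13, limma adjusted p = 7.7e-06, exact permutation p = 0.0022). Mxd4 passed the filter only through OSKM-ESC libraries, so a difference was built into its being tested. At day 38 the 2iL-ESCs had 0.12 and 0.084 FPKM against 2.80 and 2.58, and the limma test of medium by day was passed (F = 16.8, adjusted p = 0.0050). MEF cells held 22.0 and 19.3 FPKM of Mxd4, and fibroblast markers moved with it between the media. All 10 markers were above 1 FPKM in MEF cells, and 4 of 10 were so in every OSKM-ESC library against 1 of 10 in every 2iL-ESC library. Their sum was 1.46% to 2.52% of the MEF mean in OSKM-ESCs and 0.29% to 0.49% in 2iL-ESCs, whereas Mxd4 in OSKM-ESCs had a mean of 2.09 FPKM against 20.7 in MEF cells. In OSKM-iPSC clone 3, whose fibroblast sum was 0.39% of the MEF mean, Mxd4 was at 3.16 FPKM. The part of fibroblast RNA in the difference between the ESC media was not tested.

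**Figure D4:**
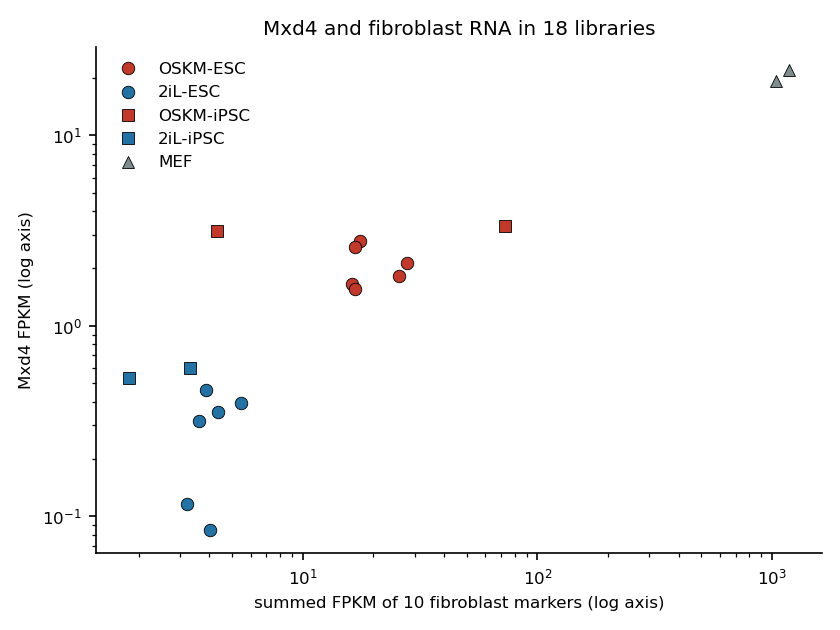
FPKM of Mxd4 (y axis, log scale) against the summed FPKM of 10 fibroblast markers (x axis, log scale) in the 18 libraries. OSKM-iPSC clones 1 and 3 had 3.35 and 3.16 FPKM of Mxd4 at fibroblast sums of 72.9 and 4.32, and the 2iL libraries have at most 0.60 FPKM of Mxd4.

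Mxd1 (chr6:86647042-86669161, minus strand) never reached 1 FPKM in pluripotent cells and was not tested there with the filter. Its FPKM was 0.74 to 0.89 in OSKM-ESCs and 0.22 to 0.58 in 2iL-ESCs, groups that did not overlap (exact permutation p = 0.0022). Without the filter its log2 fold change was 0.35 ± 0.06 (limma adjusted p = 0.0037). Among the 9 genes that passed the filter, the libraries of the 2 media did not overlap for 5, Myc, Mycn and Mxd4 being higher and Mxi1 and Mga lower in OSKM-ESCs, against 26.7% of all genes tested. Mxd4 is among them although it passed only through OSKM-ESCs.

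Mxd3 (chr13:55325168-55329823, minus strand) and Mnt (chr11:74830920-74845725, plus strand) were not called between media over all days. Mxd3 was 4.47 to 5.80 FPKM in OSKM-ESCs and 4.19 to 7.69 in 2iL-ESCs, and over all days it did not pass (log2 fold change -0.13, limma adjusted p = 0.37). Its 2iL-ESC libraries were at 6.05 and 6.18 FPKM at day 18, 4.34 and 4.19 at day 25 and 7.69 and 6.09 at day 38. The limma test of medium by day was passed for Mxd3 (F = 12.8, adjusted p = 0.010), with log2 fold changes of -0.37, 0.31 and -0.33 on the 3 days. Of these, that of day 18 alone passed (limma adjusted p = 0.045), and it was lost when any of the 4 libraries was left out.

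Mnt, the broadly expressed antagonist, peaked at day 25 in both media. It was 7.48 and 9.42 FPKM at day 18, 13.8 and 12.1 at day 25 and 9.55 and 8.47 at day 38 in OSKM-ESCs. In 2iL-ESCs it was 7.79 and 7.76, 12.7 and 12.9, and 10.8 and 11.1. The difference between media over all days was -0.05 ± 0.08 on the log2 scale (limma adjusted p = 0.66). A call at day 38 (-0.26, limma adjusted p = 0.040) was lost without any of its 4 libraries. Days differed for Mnt by limma within OSKM-ESCs (adjusted p = 0.032) and within 2iL-ESCs (adjusted p = 0.0015).

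Mga (chr2:119897228-119969581, plus strand), which carries a T-box as well as the helix-loop-helix domain, was lower in OSKM-ESCs. Its FPKM was 13.4 to 18.0 (median 16.5) against 22.6 to 27.6 (median 25.5) in 2iL-ESCs, and the groups did not overlap. The mean was 1.56-fold higher in 2iL-ESCs (log2 fold change -0.62 ± 0.08, limma adjusted p = 2.9e-05, exact permutation p = 0.0022). It was called on each of the 3 days, at -0.45, -0.73 and -0.67. The call was lost without any of the 4 libraries of day 18 and without 2 of those of day 25.

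On single days, 3 of the 9 genes tested were called higher and 3 lower at day 18, where 43.4% of all genes were called, 25.7% higher and 17.7% lower. At day 25, 3 were higher and 2 lower (46.0%, 20.7% higher and 25.3% lower), and at day 38, 5 were higher and 3 lower (59.8%, 34.6% higher and 25.2% lower). The test of medium by day called 4 of 9, Myc, Mycl, Mxd3 and Mxd4, against 37.9% of all genes. Within OSKM-ESCs, 3 of 9 genes differed between days, Myc, Mycl and Mnt, against 38.6% of all genes. Within 2iL-ESCs, 3 of 8 did, Mxi1, Mxd3 and Mnt, against 50.8%. The call of Myc within OSKM-ESCs was lost without either library of day 38, that of Mxi1 within 2iL-ESCs without either library of day 25 or replicate 1 of day 18, and that of Mxd3 without either library of day 25. That of Mnt within OSKM-ESCs was lost without replicate 1 of any day or replicate 2 of day 38. With so few genes, these shares are not set apart from the background.

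In iPSCs, 2 of the 9 genes tested were called between media, Myc and Mxd4, both higher in OSKM-iPSCs, against 7.96% of all genes (5.0% higher and 2.96% lower). The upward share of all calls was 62.8% here and 49.0% after quantile normalization. Myc was 71.9 and 42.4 FPKM in OSKM-iPSC clones 1 and 3 and 16.7 and 16.1 in 2iL-iPSC clones 3 and 6, a 3.48-fold difference of the means (log2 fold change 1.69 ± 0.27, limma adjusted p = 0.029). Mxd4 was 3.35 and 3.16 FPKM against 0.60 and 0.53 (1.44 ± 0.25, limma adjusted p = 0.035). The clones did not overlap for either gene. Mxd4 passed the filter only through the OSKM-iPSC clones, so a difference was built into its being tested, and Myc is the 1 call free of this. Both calls ended when either 2iL-iPSC clone was left out, whereas without OSKM-iPSC clone 1 the values were 1.32 for Myc (limma adjusted p = 0.035) and 1.41 for Mxd4 (limma adjusted p = 0.049).

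Mycn did not separate the iPSCs. Its FPKM was 42.1 and 39.9 in OSKM-iPSCs and 38.9 and 44.2 in 2iL-iPSCs, which gave -0.02 ± 0.15 on the log2 scale (limma adjusted p = 0.95). Mga was lower in OSKM-iPSCs, at 14.8 and 18.9 FPKM against 23.6 and 19.7, without passing (-0.35 ± 0.20, limma adjusted p = 0.30), and Mxi1 overlapped, at 8.28 and 11.9 against 12.3 and 9.66. Without clone 1 the values were -0.05 for Mycn, -0.18 for Mga and, with a change of sign, 0.11 for Mxi1, and none was called. The difference between the medium effect in ESCs and that in iPSCs, a test added after the data were seen, called 3 of 9 genes upwards and 1 downwards against 14.2% of all genes (5.55% upwards and 8.67% downwards). It was 1.66 ± 0.26 for Myc (limma adjusted p = 0.0027), 0.92 ± 0.17 for Mycn (adjusted p = 0.0062), 0.91 ± 0.21 for Mycl (adjusted p = 0.016) and -0.70 ± 0.20 for Mxi1 (adjusted p = 0.038) on the log2 scale. The call of Mxi1 was lost without any of 11 of the 16 libraries and that of Mycl without 2iL-iPSC clone 6. The upward share of all calls in this test was 39.0%, and 52.6% after quantile normalization.

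Within a medium, iPSCs and ESCs showed no called network gene. None of 9 was called between OSKM-iPSCs and OSKM-ESCs, where 1.88% of all genes were (1.27% higher and 0.612% lower), and none of 8 between 2iL-iPSCs and 2iL-ESCs, where 3.41% were (1.62% higher and 1.79% lower, limma). The upward share of calls in the OSKM comparison was 67.4%, and 55.4% after quantile normalization. At an unadjusted p under 0.05 there were 5 genes in the OSKM comparison (Myc, Mycn, Max, Mxi1 and Mxd4) and 3 in the 2iL comparison (Myc, Mycl and Mnt). Mycn had a mean of 41.0 FPKM in OSKM-iPSCs and 84.7 in OSKM-ESCs (log2 fold change -0.998 ± 0.22, limma adjusted p = 0.061), and a fit of all 9 conditions together called 6 genes in the OSKM comparison and 3 in the 2iL comparison. Without clone 1, Mycn was at -1.03 (limma adjusted p = 0.15) and still no network gene was called against OSKM-ESCs. These comparisons also differ in strain, origin and passage.

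MEF cells had another mix of the network. Myc was 31.3 and 35.7 FPKM and made up 94.8% and 95.4% of the Myc sum, while Mycn (0.91 and 0.99 FPKM) and Mycl (0.82 and 0.74 FPKM) were both near 1. Against MEF cells, OSKM-iPSCs had 5 genes higher and 2 lower of 10 tested (60.3% of all genes called, 34.0% higher and 26.4% lower). 2iL-iPSCs had 5 higher and 3 lower (78.0%, 40.6% higher and 37.4% lower), and both comparisons share the 2 MEF libraries. In both comparisons, Mycn and Mycl passed the filter only through the iPSCs, and Mxd1 only through MEF cells. Mxd4 passed only through MEF cells in the comparison with 2iL-iPSCs. A difference was thus built into the testing of these genes, and the counts of calls include them. Mycn was 43.1-fold and 43.7-fold higher in OSKM-iPSCs and 2iL-iPSCs, and Mycl 7.34-fold and 9.75-fold. Mxd4 was 6.35-fold and 36.4-fold lower. Mga rose by 1.18 ± 0.16 and 1.52 ± 0.13 on the log2 scale (limma adjusted p = 0.0060 and 0.00031).

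Myc itself fell in 2iL-iPSCs against MEF cells by 0.98 on the log2 scale (limma adjusted p = 0.00081), and in OSKM-iPSCs its difference of 0.71 ± 0.28 did not pass (adjusted p = 0.092). Over all genes the median log2 fold change of OSKM-iPSCs against MEF cells was 0.19, and the upward share of calls went from 56.3% to 44.8% with median-ratio scaling. Without either MEF library, no network gene was called in OSKM-iPSCs against MEF cells. Without clone 1, Myc was 0.33 above MEF cells on the log2 scale and 6 network genes were called, Mxd3 losing its call (0.62, limma adjusted p = 0.056).

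Ordered by mean FPKM over the 5 kinds of cells, Myc ran from OSKM-ESCs (109) through OSKM-iPSCs (57.1), MEF cells (33.5) and 2iL-iPSCs (16.4) to 2iL-ESCs (9.62), and only the first pair of neighbours overlapped. For Mycn, OSKM-ESCs (84.7) stood above 2iL-ESCs (44.0), 2iL-iPSCs (41.5) and OSKM-iPSCs (41.0), which overlapped in that order, and MEF cells (0.95) stood below all. For Mxd4 the order was MEF cells (20.7), OSKM-iPSCs (3.25), OSKM-ESCs (2.09), 2iL-iPSCs (0.57) and 2iL-ESCs (0.29), with no neighbours overlapping. For Mga it was 2iL-ESCs (25.2) and 2iL-iPSCs (21.7), which overlapped, then OSKM-iPSCs (16.9) and OSKM-ESCs (16.2), which overlapped, then MEF cells (6.86). Mxi1 was highest in 2iL-ESCs (13.2) and lowest in MEF cells (5.51), and Mxd1 highest in MEF cells (1.83) and lowest in 2iL-ESCs (0.43).

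Likeness of pattern was described across the 16 ESC and iPSC libraries, without a test, since these libraries share media and days. Cntfr, Dusp6 and Dapk1 had the pattern most like Myc among 12059 genes, with Pearson r of 0.98 for each on log2(FPKM + 1). Dusp6 encodes a phosphatase of ERK, the kinase below MEK, and was at 29.5 to 41.3 FPKM in OSKM-ESCs and 5.01 to 6.68 in 2iL-ESCs. Midn, Cachd1 and Fosb were most like Mycn (r of 0.95, 0.95 and 0.94), and Slc25a22, Msgn1 and Hoxaas3 most like Mycl (r of 0.93, 0.89 and 0.88). Among the network genes, the r of Myc was 0.90 with Mxd4, 0.80 with Mycn, -0.86 with Mxi1 and -0.93 with Mga.

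Of 28 listed genes known to be activated by Myc, 8 rose, 4 fell and 16 did not pass in OSKM-ESCs over all days, with a median log2 fold change of 0.01, beside 0.03 over all genes and the 53.8% called. Ccnd2, encoding cyclin D2, had the largest change (2.46 ± 0.30, limma adjusted p = 2.5e-05), at 2.39 to 17.8 FPKM against 0.099 to 0.52. It passed the filter only through OSKM-ESCs, was at 176 and 175 FPKM in MEF cells, and was 7.83 FPKM in OSKM-iPSC clone 1 but 0.37 in clone 3. Nme1, a nucleoside diphosphate kinase, rose by 0.56, whereas Tfrc, the transferrin receptor, fell by 1.18 and Ldha, lactate dehydrogenase A, fell by 0.62. Tfrc was 23.2 to 36.3 FPKM in OSKM-ESCs and 60.5 to 76.7 in 2iL-ESCs. By day, 2 rose and 3 fell at day 18 (25.7% and 17.7% of all genes), 12 rose and 3 fell at day 25 (20.7% and 25.3%), and 6 rose and 7 fell at day 38 (34.6% and 25.2%). Their median log2 fold changes were -0.14, 0.27 and 0.0089 on these days, beside 0.068, -0.052 and 0.074 over all genes.

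Of 6 genes known to be repressed by Myc, 2 rose and 3 fell over all days, beside 29.5% and 24.4% of all genes. Gadd45a, a growth arrest gene, rose by 1.12, at 25.4 to 43.0 FPKM against 11.9 to 18.5, and also rose in iPSCs (1.67, limma adjusted p = 0.012), with 44.8 FPKM in OSKM-iPSC clone 3 against 13.8 and 11.6 in 2iL-iPSCs. Cdkn1a, which encodes the cell cycle inhibitor p21, fell by 1.02, Ndrg1 fell by 1.64 and Ndrg2 fell by 0.57. In iPSCs, 1 of 28 activated targets was called (Tfrc, down), and 2 of 6 repressed targets were called, both up, where 5.0% of all genes were called up and 2.96% down. Tfrc was 34.5 FPKM in OSKM-iPSC clone 3 and 65.4 and 55.3 in 2iL-iPSCs.

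Cofactors were called in both directions. All 4 Sin3 corepressor genes fell over all days, where 24.4% of all genes fell, Hdac1 by 0.45, Sin3b by 0.23, Hdac2 by 0.21 and Sin3a by 0.16 on the log2 scale, and none of the 4 was called in iPSCs, where 7.96% of all genes were (limma, with 2 at an unadjusted p under 0.05, Hdac1 at -0.53 and Sin3b at 0.63). Among the cofactors of Myc named here, Kat5 and Ruvbl1 rose and Wdr5 and Zbtb17 fell over all days. The mean FPKM of Ruvbl1 was 1.48-fold higher in OSKM-ESCs at day 25 but 1.04-fold at day 18 and 1.01-fold at day 38. Wdr5, which helps Myc to chromatin, fell by 0.63, from 77.4 to 104 FPKM in 2iL-ESCs to 47.0 to 65.0 in OSKM-ESCs. Of 10 genes of Myc protein turnover, Skp2, Gsk3b and Usp36 rose, Usp28, which protects Myc from degradation, fell by 0.68, and 6 did not pass, so 4 of 10 were called beside 53.8% of all genes. In the Mlx branch, Mlxip, encoding the glucose sensor MondoA, rose by 0.78 and by 1.09 in iPSCs (limma adjusted p = 0.040, with 8.80 FPKM in OSKM-iPSC clone 3 against 3.53 and 3.14 in 2iL-iPSCs), and Mlxipl, encoding ChREBP, fell by 0.49.

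Of the 9 partners of Mga in PRC1.6, 3 rose and 3 fell over all days, which is near the 29.5% and 24.4% of all genes. E2f6, a repressive E2F, rose by 1.10, at 21.9 to 32.1 FPKM against 10.3 to 12.2, and was also called in iPSCs (1.24, limma adjusted p = 0.039), with 19.8 FPKM in OSKM-iPSC clone 3 against 8.88 and 10.3 in 2iL-iPSCs. Yaf2 rose by 1.05 and Ring1 by 0.66, whereas L3mbtl2 fell by 0.59, Pcgf6 by 0.33 and Rnf2 by 0.24. In MEF cells E2f6 was 18.7 and 22.6 FPKM and Yaf2 20.4 and 22.2.

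The germline genes that PRC1.6 is known to silence were mostly lower in OSKM-ESCs, where Mga was lower too. Of the 15 listed, 13 passed the filter, 4 of them through 2iL-ESCs alone (Stk31, Taf7l, Slc25a31 and Smc1b) and Tdrd1 through OSKM-ESCs alone, and these 5 had to differ. The other 8 passed in both media and all 8 fell, beside 24.4% of all genes. Dazl and Sycp1 passed in OSKM-ESCs through a single day 25 library, at 1.0045 and 1.14 FPKM. Their place among the 8 rests on that library. By day, 12 of 12 tested fell at day 18 (17.7% of all genes), 7 fell and 1 rose of 12 at day 25 (25.3% and 20.7%) and 10 of 10 fell at day 38 (25.2%), counts that include genes passing through 1 medium alone. Dazl, an RNA-binding protein of germ cells, was 0.10 to 1.0 FPKM in OSKM-ESCs and 6.67 to 11.7 in 2iL-ESCs (-2.81 ± 0.11, limma adjusted p = 3.0e-09). Hormad1, a protein of meiotic chromosome axes with E-boxes in its promoter, was 0.22 to 1.49 FPKM against 7.47 to 15.01 (-2.72 ± 0.17, limma adjusted p = 1.6e-07). Stk31 fell by 2.00, and Stra8, the meiotic gatekeeper, fell by 1.59.

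Sycp3, Sycp1, Mael and Ddx4 fell by 1.56, 1.36, 1.01 and 0.96, and Meioc fell by 0.59. Tdrd1, also with an E-box, rose by 0.56, at 0.34 to 1.42 FPKM against 0.091 to 0.23. Mael overlapped between media, at 0.14 to 3.47 FPKM against 2.05 to 4.67, with the highest OSKM-ESC libraries both of day 25, when the mean of Mael was 1.11-fold higher in OSKM-ESCs. In iPSCs 1 of 13 tested was called, Dazl (-3.92, limma adjusted p = 0.017), near the 7.96% of all genes called. Dazl was 0.23 and 1.47 FPKM in OSKM-iPSC clones 1 and 3 against 36.1 and 17.8.

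**Figure D5:**
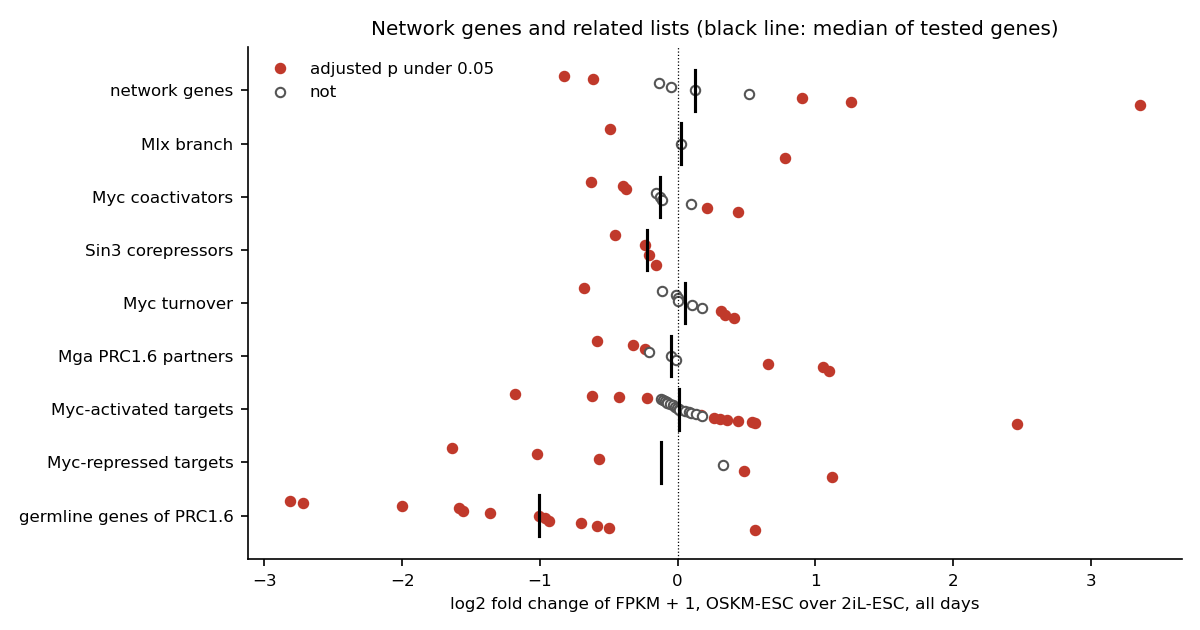
Log2 fold changes of FPKM + 1 (x axis, OSKM-ESC over 2iL-ESC, all days) of every tested gene of the network and of 8 related lists; filled points have an adjusted p under 0.05 and black lines are medians. Myc stands at 3.35, activated targets centre on 0.01, and germline genes reach down to -2.81 (Dazl), 5 of the 13 having passed the filter through 1 medium alone.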

How the data were processed

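RNA was extracted with TRIzol, and poly-A libraries were made with an unstranded NEBNext Ultra kit. The authors aligned reads to GRCm38/mm10 (STAR 2.7.1a), kept unique alignments and computed gene FPKM with StringTie 2.0. Their notes also name Cuffdiff 2.2.1. TPM and mean coverage per gene were deposited beside FPKM by the authors, 1 file per library. Counts were not analysed here, so precision from depth is unknown.

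FPKM was the main measure. log2(FPKM + 1) was tested with limma 3.58.1 (R 4.3.3, eBayes with trend, day as covariate over all days) on genes that exceeded an FPKM of 1 in 1 or more of the libraries fitted, with Benjamini-Hochberg adjustment over all of them and a threshold of 0.05. Groups came from the sample labels. Fits were tested on simulated data. Exact 2-sided permutation tests used Python 3.11.15 and scipy 1.17.1. RefSeq promoter windows of GRCm38.p6 were matched by symbol.

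All 10 network genes are named, as are, per related list, up to 4 called genes with the largest change, the 3 genes most like each Myc gene, the other cassette genes and Pvt1. Further germline genes, Ruvbl1, Pcgf6 and Rnf2 were named after their values were seen. The members and lists were chosen with earlier results of these data known. Alternatives were a pseudocount of 0.1, other filters, median-ratio or quantile scaling, TPM, no trend, 1 fit of 9 conditions, the study's cutoff (over 2-fold and unadjusted p), a replicate block and leaving out each library. The test of ESC against iPSC effects and the alternatives for 2iL-iPSCs against 2iL-ESCs were added after the data were seen. Same-numbered libraries of a day deviated with r of 0.131, 0.0904 and 0.0120, so the numbers were not taken as pairs. The result of 1 gene of the related lists is not reported here.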

Additional observations from a re-analysis of the deposited data

Results flagged for a closer look

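The difference between OSKM-ESCs and 2iL-ESCs varied between days 18, 25 and 38 for 4 network genes in limma's test of medium by day. The range of the log2 fold change over the 3 days was 1.25 for Myc (adjusted p = 0.010), 1.90 for Mycl (adjusted p = 0.00011), 0.67 for Mxd3 (adjusted p = 0.010) and 0.83 for Mxd4 (adjusted p = 0.0050). Myc, Mycl and Mxd4 had their highest value at day 38, and Mxd3 was above 0 at day 25 alone.

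The difference between media in ESCs minus that in iPSCs passed limma's test for 4 genes. It was 1.66 for Myc (adjusted p = 0.0027), 0.92 for Mycn (adjusted p = 0.0062), 0.91 for Mycl (adjusted p = 0.016) and -0.70 for Mxi1 (adjusted p = 0.038) on the log2 scale. ESCs and iPSCs also differ in strain, origin and passage, which cannot be told apart from cell type here.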

How the results depend on the processing

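Outside the leaving out of libraries, 993 of the recomputed values kept their direction and side of the threshold, 44 lost a call, 43 gained one and 9 reversed. The study's cutoff of 2-fold and an unadjusted p called 2 network genes over all days, 2 at day 18, 3 at day 25, 4 at day 38, 2 for medium by day, 1 between days within OSKM-ESCs, 0 within 2iL-ESCs, 1 for OSKM-iPSCs against OSKM-ESCs and 1 for the ESC minus iPSC effect. Its fold limit ended the calls of Mycn, Mxi1 and Mga over all days. Days within OSKM-ESCs gave 5 calls with no filter, with the filter in at least 2 libraries and in 1 fit of 9 conditions, and days within 2iL-ESCs gave 5 under median-ratio and under quantile scaling. The fit of 9 conditions called 6 for OSKM-iPSCs against OSKM-ESCs and 3 for 2iL-iPSCs against 2iL-ESCs. Without the filter the ESC minus iPSC effect called 2. Except where construction shows it, the cause was not tested.

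Of the 9 reversed log2 values, none was called: Mnt at day 18 (-0.023, quantile) and against MEF cells (-0.11 in OSKM-iPSCs, median-ratio, and 0.022 in 2iL-iPSCs, quantile), Max at day 25 (0.0078, median-ratio) and in 2iL-iPSCs against 2iL-ESCs (0.032, median-ratio, and 0.024, quantile), Mycn in iPSCs (0.011, TPM), Mxd3 in OSKM-iPSCs against OSKM-ESCs (-0.060, quantile) and Mxd4 in the ESC minus iPSC effect (0.26, pseudocount 0.1).

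Leaving out 1 library at a time gave 5 to 6 calls over all days, 2 to 3 at day 18, 4 to 5 at day 25, 6 to 7 at day 38, 4 to 5 for medium by day, 1 to 4 within OSKM-ESCs, 1 to 3 within 2iL-ESCs, 0 to 2 in iPSCs (0 without either 2iL-iPSC clone), 0 to 8 for OSKM-iPSCs against MEF cells (0 without either MEF library), 6 to 8 for 2iL-iPSCs against MEF cells, 0 to 1 for each of iPSCs against ESCs and 2 to 4 for the ESC minus iPSC effect. The sign changed for Mnt at day 18 (-0.049 to 0.25) and day 25 (-0.076 to 0.10), Mycn (-0.11 to 0.072) and Mxi1 (-0.36 to 0.11) in iPSCs, Mxd3 (-0.13 to 0.20) and Mga (-0.11 to 0.22) in OSKM-iPSCs against OSKM-ESCs, Mycn (-0.17 to 0.012) and Max (-0.076 to 0.031) in 2iL-iPSCs against 2iL-ESCs, and Mxd3 in the ESC minus iPSC effect (-0.10 to 0.23).

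With the replicate number as a block, 5 genes were called over all days, 7 at day 18, 5 at day 25 and 8 at day 38. By limma the block gained Mycl at day 18 (adjusted p = 0.037) and Mxd3 at day 38 (adjusted p = 0.045) and lost Mnt at day 38 (adjusted p = 0.061). The numbers were not shown to mark a shared culture. With 2 libraries per condition and unknown depth, small differences of Max, Mxd3 and Mnt could not be settled.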

Other observations

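The ratio of coverage to FPKM of Myc, relative to its library median, was 0.79 to 0.84 in 17 libraries and 1.10 in 2iL-iPSC clone 3.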
